A study of Mus musculus with 2 samples.

Results

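Long intergenic noncoding RNAs (lincRNAs) are transcripts of genes that lie between protein-coding genes and carry no known protein. They are made by RNA polymerase II, are usually capped and polyadenylated, and are often spliced. Some stay in the nucleus, such as Xist, which coats the inactive X chromosome, and Malat1 and Neat1, which mark nuclear speckles and paraspeckles. Others act in the cytoplasm or are processed into microRNAs.

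The genes described here were those annotated as lincRNA in GENCODE M21 with at least 10 long reads over both libraries, without the small nucleolar RNA host genes whose symbols start with Snhg and without Gas5, Meg3, Rian and Mirg. There were 118 such genes among 5854 annotated lincRNA genes, and among 11195 annotated genes of any type with at least 10 reads. Another 758 lincRNA genes had 1 to 9 reads, 400 of them a single read, and 4972 had none. The members were thus chosen by their summed read counts, so their levels are a description and carry no test.

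Long-read RNA sequencing, which reads a cDNA from end to end, was applied to hippocampus of female mice of the cross B6CASTF1/J at 2 months of age. There was 1 group, untreated as far as the labels say, of 2 libraries numbered as biological replicates 1 and 2, each from 2 µg of RNA. The labels list 1 donor identifier for both libraries, and their descriptions disagree on whether the animals differ, so the spread between the libraries may be technical. Replicate 1 held 826596 reads not on spike-ins and replicate 2 held 745492. Markers of dentate granule, CA1, CA3, neuronal, astrocyte, oligodendrocyte, microglial, endothelial and choroid plexus cells all had reads, with list medians from 8.86 CPM for choroid plexus to 592 CPM for astrocytes. In the choroid plexus list, Ttr stood at 252 CPM, Kl at 8.86 and Folr1 at 1.28 CPM. Ttr had 271 reads in replicate 1 and 131 in replicate 2 (adjusted p = 1.29e-06, exact binomial test between libraries, described below). The share of each cell type in the tissue was not measured. Fewer cells of a type and less RNA per cell cannot be told apart in such bulk samples.

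Levels are given as reads per 1000000 non-spike-in reads (CPM), so that a single read equals 1.21 CPM in replicate 1 and, in replicate 2, 1.34 CPM. A read counts as 1 whatever its length, so CPM is not divided by length. The recovery of long and short transcripts was not measured. Errors after ± are standard deviations over the 2 libraries.

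Short sequences that later results refer to are shown first, since they set several members apart from the rest. 2900097C17Rik is the gene that RefSeq names Norad, a cytoplasmic RNA known for binding Pumilio proteins through repeated short elements. The stretch below lies at chr2:156390502-156390558 on the minus strand (mm10, from the GENCODE M21 transcript), and capitals mark 2 of its matches to the Pumilio-type motif TGTANATA.
2900097C17Rik-202: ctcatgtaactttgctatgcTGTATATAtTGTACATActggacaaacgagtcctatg
Miat, also known as Gomafu, is a nuclear RNA of neurons known for repeats of the intron branch-point sequence. The stretch of its transcript at chr5:112216742-112216822 on the minus strand has 3 matches to TACTAAC in capitals.
Miat-201: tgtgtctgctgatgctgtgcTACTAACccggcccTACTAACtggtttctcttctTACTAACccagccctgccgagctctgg
1700020I14Rik is the gene that RefSeq names Oip5os1, known as Cyrano, which directs the decay of the microRNA miR-7. Its site for miR-7 at chr2:119602137-119602161 on the plus strand is shown with the match to the microRNA's first 8 bases in capitals, above the mature microRNA (RefSeq, GRCm38.p6) with its seed, bases 2 to 8, in capitals.
1700020I14Rik-202: acaacaaaatcaccaatGTCTTCCA
mmu-miR-7a-5p: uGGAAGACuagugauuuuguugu
Members also hold microRNA hairpins. All 3 hairpins of miR-9, a microRNA of neural progenitors and neurons, lie inside members and give the same mature strands, and Ftx, a gene of the X inactivation centre, holds Mir374b and Mir421. Seeds are in capitals.
mmu-miR-9-5p: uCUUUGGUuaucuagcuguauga
mmu-miR-9-3p: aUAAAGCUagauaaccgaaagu
mmu-miR-374b-5p: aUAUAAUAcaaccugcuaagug
mmu-miR-421-5p: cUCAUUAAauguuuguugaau

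The 118 genes together took a small and even share of each library. They held 2341 reads in replicate 1, which is 0.283% of non-spike-in reads (exact 95% Clopper-Pearson interval 0.272 to 0.295%), and 2163 reads in replicate 2, which is 0.290% (0.278 to 0.303%). The intervals overlap. A single gene, 2900097C17Rik, held 20.6% of the 4504 reads, the leading 5 held 39.2% and the leading 15 held 56.2%. At the other end, 67 members had 10 to 19 reads and 36 had 20 to 49. The median member stood at 11.4 ± 0.966 CPM, against 33.7 ± 0.240 CPM for the 10616 protein-coding genes with at least 10 reads. All but 1 of the members had reads in both libraries.

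**Figure D1:**
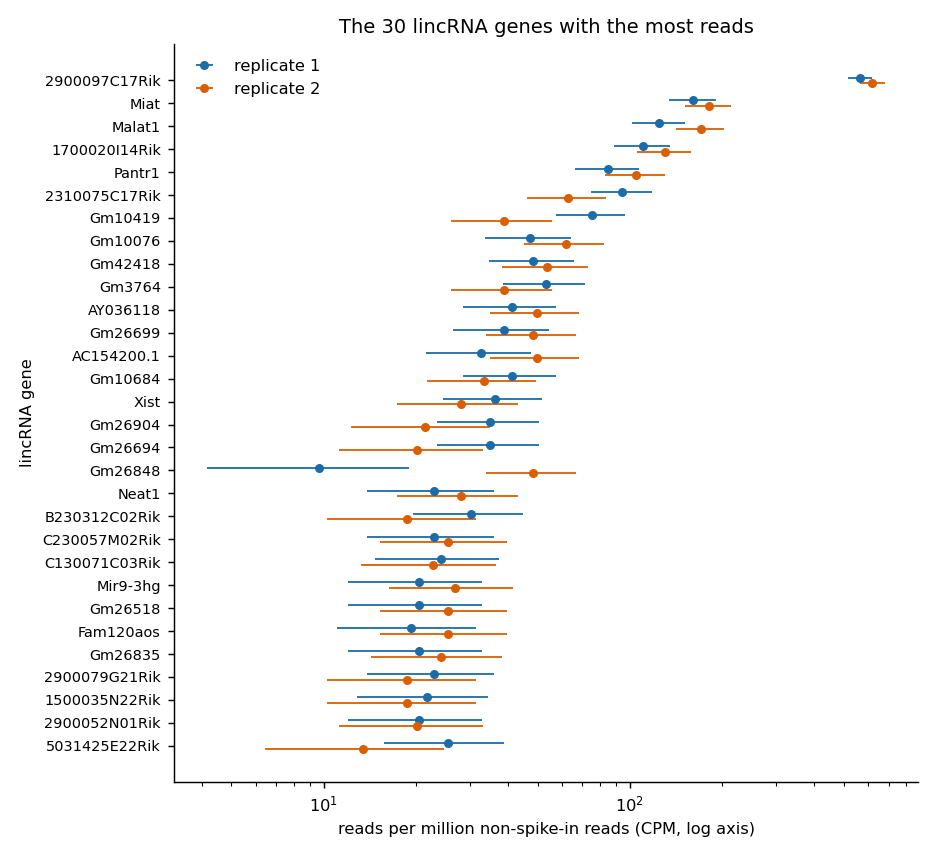
Levels of the 30 members with the most reads, in CPM on a log axis, for replicate 1 (blue) and replicate 2 (orange). Points are levels and bars exact 95% Clopper-Pearson intervals, which cover counting error only; 2900097C17Rik stands apart at the top with 566 and 620 CPM, and Gm26848 stands at 9.68 and 48.3 CPM.

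Among RNAs known from the cytoplasm, 2900097C17Rik (ENSMUSG00000102869.2, chromosome 2, 156388065 to 156392979, minus strand) had 468 reads in replicate 1 and 462 in replicate 2. That is 566 and 620 CPM, or 593 ± 37.9 CPM, and no other member reached 200 CPM. 1700020I14Rik (ENSMUSG00000085438.1, chromosome 2, 119594297 to 119607502, plus strand) had 91 and 97 reads, or 120 ± 14.2 CPM. Epb41l4aos, named here for the small nucleolar RNA gene in its intron and not as a cytoplasmic RNA, had 6 and 9 reads.

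Nuclear RNAs came next. Miat (ENSMUSG00000097767.8, chromosome 5, 112213228 to 112229395, minus strand) had 133 and 135 reads, or 171 ± 14.3 CPM. Malat1 (chromosome 19, 5795690 to 5802672, minus strand) had 103 and 127 reads, or 147 ± 32.4 CPM. The values of Miat (161 and 181 CPM) and of Malat1 (125 and 170 CPM) overlap, as do those of Malat1 and 1700020I14Rik (110 and 130 CPM), while those of Miat and 1700020I14Rik do not. Within each library the order was Miat, Malat1, 1700020I14Rik. The order rests on genomic models, defined below, since without them Miat stood at 51.8, Malat1 at 160 and 1700020I14Rik at 110 CPM. Neat1, the scaffold RNA of paraspeckles and the neighbour of Malat1 on chromosome 19, had 19 and 21 reads, or 25.6 ± 3.67 CPM. Pvt1, a large gene downstream of Myc, had 10 reads in each library.

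The X inactivation centre gave 3 members. Xist had 30 and 21 reads, or 32.2 ± 5.74 CPM, and Jpx and Ftx, noncoding genes next to it that are known as activators of Xist, had 8 and 7 and 8 and 9 reads. Each of the 3 had reads in both libraries. Tsix, the antisense gene of Xist and not a member, had 15 and 23 reads, and the X-linked Firre 4 and 2.

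Pantr1, which is divergent from the neural transcription factor gene Pou3f3, led the genes that neighbour developmental regulators, with 70 and 78 reads, or 94.7 ± 14.1 CPM. C130071C03Rik had 20 and 17 reads and A330008L17Rik, next to Cdh8, had 9 and 4. Rmst, Six3os1 and Otx2os1 of the same list had no read, which allows at most 3.63 CPM in replicate 1 and 4.02 CPM in replicate 2 (3 counts of the total, for counting error only).

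The hosts of the miR-9 hairpins, whose mature sequences are shown above, were Gm3764 with 44 and 29 reads (46.1 ± 10.1 CPM; Mir9-1, chromosome 3, 88215598 to 88215686, in an intron), C130071C03Rik (23.5 ± 0.984 CPM; Mir9-2, chromosome 13, 83738814 to 83738885, in an exon) and Mir9-3hg with 17 and 20 reads (23.7 ± 4.43 CPM; Mir9-3, chromosome 7, 79505264 to 79505353, in an intron). Their ranges over the libraries do not separate C130071C03Rik from Mir9-3hg. The host of Mir124a-1, a hairpin of the neuronal microRNA miR-124, is Mir124a-1hg, which had 8 and 15 reads. All of its reads were unspliced. In replicate 2 they formed 1 model from 64591271 to 64593961 on chromosome 14, and in replicate 1 a model from 64591889 to the same end. The hairpin at 64590657 to 64590741 lies outside both models. In C130071C03Rik the leading unspliced model, with 8 and 5 reads, ran from 83738954 to 83741308 and so began beyond the Mir9-2 hairpin. In all, 9 members held 12 microRNA or small nucleolar RNA genes on their own strand, 9 of them in introns and 3 in exons, and 6 of the 12 had a RefSeq sequence. In Gm26551, C230004F18Rik and Gm12718 the microRNA genes carry only Gm symbols.

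The remaining highly ranked members carry clone or model names without a known function. 2310075C17Rik had 78 and 47 reads, or 78.7 ± 22.1 CPM, and Gm10419 had 62 and 29, or 57.0 ± 25.5 CPM. Both were higher in replicate 1, and neither passed the adjusted test between libraries given below. Gm10076 had 39 and 46 reads, Gm26699 had 32 and 36, AC154200.1 had 27 and 37, and Gm10684 had 34 and 25.

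Some of these levels may include reads of other genes. The 383 bases of Gm10076-202 (chromosome 14, 105681829 to 105682211) match Rpl41, a ribosomal protein gene with 927 reads, with 99.5% identity over the whole length. The way reads were shared between the copies was not analysed here, so the level of Gm10076 is uncertain. Of all members, 5 had a copy of at least 95% identity over 50% or more of a transcript in a gene elsewhere, and these 5 held 1059 reads. They include 2900097C17Rik, whose short transcript 2900097C17Rik-201 is identical over its 339 bases to part of Gm7292. Gm7292 had no read. E430024I08Rik, 2410018L13Rik and AC102496.1 were the others. Without these 5 members the share of non-spike-in reads was 0.219% in place of 0.287%.

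A set of 3 members lies side by side on chromosome 17. Gm42418 (39846958 to 39848788, plus strand) had 40 reads in each library, AY036118 (39847113 to 39848035, minus strand, inside Gm42418) had 34 and 37, and Gm26917 (39843013 to 39846341, plus strand) had 10 and 21. RefSeq names Gm42418 Rn18s-rs5, a relative of the small ribosomal RNA gene. The opposite strand of Gm26917 carried far more: a single-exon antisense model from 39843013 to 39846245 took 12080 reads in replicate 1 and 13838 in replicate 2, more than all 118 members together.

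The reads of these genes were mostly unspliced. Each read is assigned to a model of a class: an annotated transcript, a new combination of annotated splice sites, a model with a new splice site (these 3 are called full-splice), an incomplete match, or a genomic model, which overlaps the gene without following its introns. Genomic models held 36.7% ± 0.777 of the members' reads, against 9.71% ± 0.116 for protein-coding genes with at least 10 reads. Full-splice models held 58.1% ± 1.30, against 77.7% ± 0.391. Single-exon models of any class held 73.4% ± 0.803, against 14.2% ± 0.0895. Restricting both groups to genes with 10 to 99 reads left genomic shares of 48.9% ± 0.0257 for 112 members and 12.8% ± 0.0367 for 7484 protein-coding genes. These are descriptions without a test. The SD over libraries does not measure the variation among genes of a group.

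**Figure D2:**
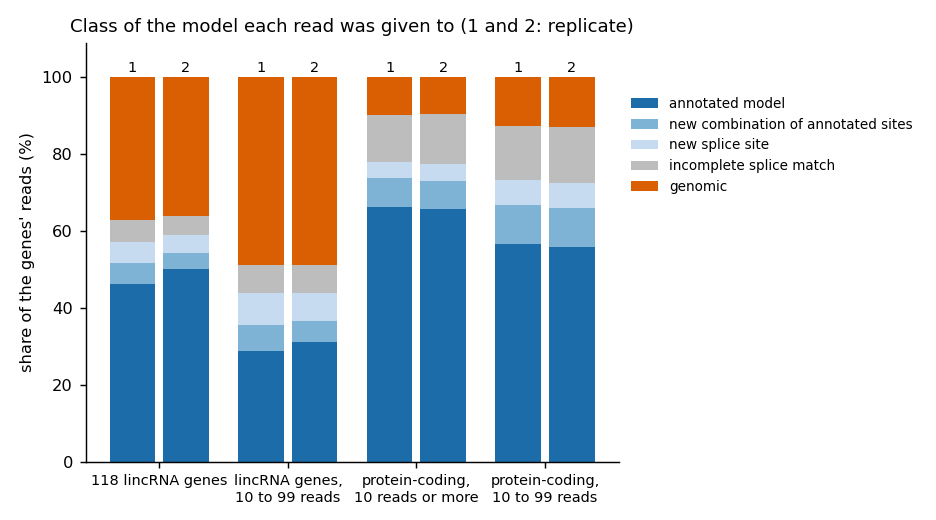
Share of reads by class of the model (y axis, %), for members and protein-coding genes, each in replicates 1 and 2 and in all or only genes with 10 to 99 reads. The orange genomic part takes 37.2 and 36.1% for the members and 9.79 and 9.62% for protein-coding genes.

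The genomic share differed widely among members. Every read was genomic in 35 members, and no read was in 22. Among the 15 members with at least 50 reads, 2310075C17Rik, Gm26699, AC154200.1 and Gm10684 had only genomic reads and Xist had 98.0% of them, while Gm10076, Gm42418 and AY036118 had none, 2900097C17Rik 1.18% and Malat1 1.30%. In the last 5, annotated single-exon transcripts took nearly all reads, so a low genomic share does not mean spliced reads. Only 11 members are annotated without any intron. Of the 107 with a spliced annotation, 64 had a median read of 1 exon and 40 had no spliced full-splice read.

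Several unspliced models had a narrow and repeated position. Xist is annotated as 7 exons in Xist-201, but 29 of its 30 reads in replicate 1 fell in 1 model of 466 bases (chromosome X, 103482789 to 103483254) and 20 of 21 in replicate 2 in a model of 517 bases with the same outer end. That end is the annotated 5′ start of Xist on the minus strand. A single read in replicate 1 followed the 7-exon chain. Miat behaved in the opposite way along the gene: 92 of 133 and 95 of 135 reads fell in a model of 654 or 657 bases that starts at 112213228, the annotated 3′ end. AC154200.1 had 26 of 27 and 36 of 37 reads in the same 280 bases (chromosome 17, 17345177 to 17345456). Only 2 of its 64 reads over both libraries touched an annotated exon of the gene. For 2310075C17Rik, all 78 and all 47 reads fell in models from 112227671 to 112231180 or 112231091 on chromosome 9, which run past the annotated end of the gene at 112228242. Whether such reads start at runs of A within a transcript was not tested, because no genome sequence was used here.

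The models that held members' reads also ended less often at an annotated end. A read given to an annotated model was counted at the end of that model, so these shares are not ends of reads. Models ending within 100 bases of an annotated 3′ end held 67.1% of member reads in replicate 1 and 68.5% in replicate 2, against 94.5% and 94.2% for protein-coding genes. For 16 members with 413 reads, no read touched an annotated exon of the gene. They include Gm10684, Gm26904, Gm26694, Gm26848, Gm26733, Gm26551, A930014D07Rik and Gm49247. In 22 members, these 16 and AC154200.1 included, fewer reads touched an annotated exon of the gene than missed them all. All 59 reads of Gm10684 (chromosome 9, 45128703 to 45128975 in replicate 1) lay in an exon of Scn2b on the other strand. The 68 reads of Gm26699 lay in exons of Luc7l2 and 11 of the 12 of Gm26735 in an exon of Sox4, both also on the other strand. The levels of these 3 members depend on the strand that was given to unspliced reads, and that strand was not tested.

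Isoforms could be compared in the 9 members whose full-splice reads numbered 20 or more per library. The leading model or chain of introns held a median of 71.5% of their full-splice reads, against 83.8% in 4738 protein-coding genes. Of the 9, 5 (55.6%) had at least 2 isoforms that each made up 10% or more in both libraries, against 30.3% of the protein-coding genes. The leading model was spliced in 4 of the 9, against 4606 of the 4738 protein-coding genes. Each annotated unspliced model counts as an isoform here, so these shares do not compare splicing alone.

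2900097C17Rik split between 2 nested single-exon models. The short 2900097C17Rik-201 (156392491 to 156392829) took 289 of 462 and 274 of 457 reads, or 61.3% ± 1.84, and 2900097C17Rik-202 of 4915 bases took the other 38.7% ± 1.84. The deposited structures give the ends of the annotated model and not those of the reads, so this split is not a measure of read length. Malat1-201, the unspliced transcript, held 99.5% ± 0.700. Neat1-201, annotated as 20771 bases, took 16 and 18 reads, and it is the longest leading model of any member. Here too the length is that of the model, and how much of it the reads covered was not measured.

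Spliced members were more varied. 1700020I14Rik-202 (3 exons, 8300 bases) held 71.5% ± 3.88 and 1700020I14Rik-201, which has 3 exons and ends earlier at 119600746, held 21.5% ± 0.469. Pantr1 was the most divided, with 35.5% ± 7.62 for Pantr1-209, 13.4% ± 8.20 for Pantr1-212, 11.5% ± 1.22 for Pantr1-207 and 10.9% ± 3.83 for Pantr1-202. Their ends near 42648200 on chromosome 1 are shared, while their 5′ ends differ. Gm3764-207, at 88228783 to 88229959 beyond the Mir9-1 hairpin, held 8 of 34 and 13 of 22 full-splice reads, or 41.3% ± 25.1. It was the member with the widest difference between libraries.

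Among the 9 members compared for isoforms, Miat was the only 1 whose leading chain is not annotated. A 6-exon chain joining annotated splice sites (chromosome 5, 112213228 to 112228675 in replicate 1) held 14 of 31 and 9 of 23 full-splice reads, or 42.1% ± 4.26, and a 7-exon chain held 8 and 5, or 23.8% ± 2.88. The annotated Miat-205 held 3 and 2. Both unannotated chains keep the large last exon from 112213228 to 112220235, and they differ from each other by an exon at 112228301 to 112228356. These were the only unannotated chains of members with at least 5 reads in each library. With a minimum of 2 reads in each, there were 14 such chains in 11 members, among them 3-exon chains of 4930570G19Rik (4 and 6 reads) and 2610035D17Rik (3 and 5) and a 4-exon chain of Mir9-3hg (3 and 6).

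The models with the most exons were found in Ftx (16 exons), Gm3764 and C230004F18Rik (10 each), and Pvt1, C230057M02Rik, Miat and Gm37494 (8 each). After Neat1, the longest leading models were those of Gm37494 (16021 bases), Gm9866 (8487), 1700020I14Rik (8300) and Gm19710 (8019, genomic). These are lengths of models and not of reads.

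Shares of the leading chain were compared between libraries with two-sided Fisher's exact tests, adjusted by Benjamini and Hochberg over 4526 genes. Of 7 members tested, 0 passed an adjusted p of 0.05, where 0.199% of all genes did, and 1 member had an unadjusted p under 0.05. That member was Gm3764 (adjusted p = 0.947).

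The sequences shown at the start were counted in all annotated transcripts of the members. 2900097C17Rik-202 holds 11 matches to TGTANATA on the transcript strand, 6 spelled TGTATATA, 3 TGTACATA and 2 TGTAAATA, between positions 651 and 3526 of 4915. No other of the 5854 lincRNA genes has as many in its longest transcript. C230004F18Rik-210 has 8 in 19658 bases and Xist-201 has 6 in 17946. Of all lincRNA genes 13.9% have at least 1 match, and of the members 24.6%, whose longest transcripts are longer (median 2114.5 against 984 bases). 2900097C17Rik-201 has no match. Models holding any of the 11 took 179 of 468 and 188 of 462 reads, or 39.5% ± 1.73.

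Miat-201 and Miat-205 hold 6 matches to TACTAAC, the highest number in the longest transcript of any annotated lincRNA gene, and 4930570G19Rik follows with 2 among the members. All 6 lie in the last exon, ahead of the short unspliced model at the 3′ end. Only 35 of 133 and 30 of 135 reads, or 24.3% ± 2.89, were in models that contain them.

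The miR-7 site of 1700020I14Rik pairs with bases 1 to 8 of the microRNA and again, over 13 bases, with its 3′ end. Models that contain this site held 73 of 91 and 72 of 97 reads, or 77.2% ± 4.24. 1700020I14Rik-201 ends before it. The seed match GTCTTCC alone occurs in 22 of the 118 members, or 18.6%, and in 11.4% of all lincRNA genes. C230004F18Rik, named Cdr1os in RefSeq, has 125 of them in C230004F18Rik-210, the most in the longest transcript of any lincRNA gene. It had only 6 reads in each library, and 1 and 3 of these were in models with an exon that holds a match. A match is a match of letters and not a site of binding.

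**Figure D3:**
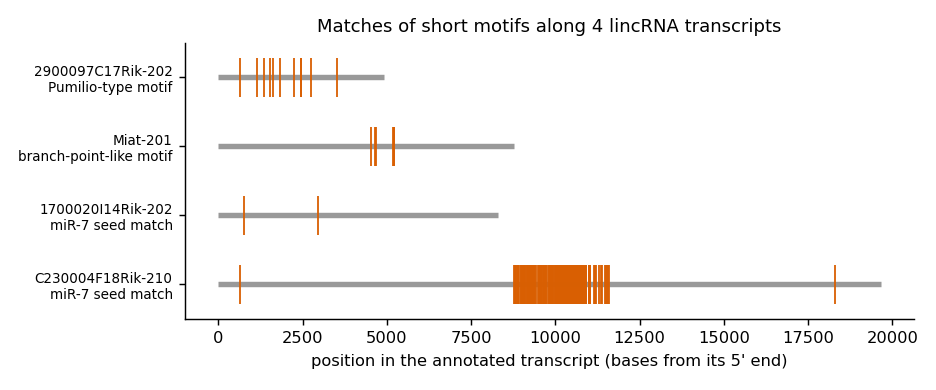
Matches (orange lines) along 4 annotated transcripts drawn to scale (x axis, bases from the 5′ end): TGTANATA in 2900097C17Rik-202, TACTAAC in Miat-201 and the miR-7 seed match in 1700020I14Rik-202 and C230004F18Rik-210. The 11 matches of 2900097C17Rik-202 are spread from 651 to 3526, the 6 of Miat-201 lie close together, and all but 2 of the 125 of C230004F18Rik-210 fall between 8769 and 11594.

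Reading frames and transcript ends were compared by the longest annotated transcript. The longest open frame from ATG to stop had a median of 81 codons in the members, 60 in all lincRNA genes and 412 in protein-coding genes with at least 10 reads. It reached 100 codons in 38 members (32.2%), in 14.8% of all lincRNA genes and in 93.7% of the protein-coding genes. The members' longest transcripts were longer than those of all lincRNA genes (median 2114.5 against 984 bases). Gm37494-202, of 16021 bases, had a frame of 918 codons. A poly(A) signal, AATAAA or ATTAAA, lay in the last 50 bases in 68 members (57.6%), in 41.0% of lincRNA genes and in 74.4% of the protein-coding genes.

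By symbol or synonym, 54 members matched a RefSeq promoter (GRCm38.p6, 250 bases before to 50 after the start) within 500 bases of an annotated start. The observed over expected ratio of CpG was 0.6 or more in 30 of them (55.6%), against 35.8% of the 32851 promoters in the table and 47.7% of those of protein-coding genes. Unlike the members, these promoters were not limited to genes with at least 10 reads, so the sets differ in more than gene type. On either strand, TATAAA occurred in 14.8% against 13.6% of all promoters, CCAAT in 42.6% against 37.4%, and TGACGTCA, the cyclic AMP response element, in 4 members (7.41%) against 1.79%. These 4 were Gm3764 and Mir9-3hg, both hosts of miR-9, with 1300002E11Rik and C030037D09Rik. The promoter of C130071C03Rik, the remaining host of miR-9, was also matched and had no TGACGTCA.

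Members often lay close to or across protein-coding genes despite the name of their class. A protein-coding gene overlapped 41 members, on the opposite strand for 37 and on the same strand for 12. Another 39 lay within 10000 bases of one without overlap, and 38 lay farther away. For 21 members the annotated start was within 1000 bases of the start of a protein-coding gene transcribed away from it. Among these pairs were 4930570G19Rik with Negr1 (48 bases), a neural adhesion gene, AC154200.1 with Riok2 (103), Fam120aos with Fam120a (270) and Pantr1 with Pou3f3 (926). 12 members started within 10000 bases after a protein-coding gene on the same strand, such as Neat1, 4224 bases after Frmd8.

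The deposited files also give antisense models, which lie on the strand opposite to an annotated gene. Over the 118 members they held 13955 reads in replicate 1 and 15521 in replicate 2, nearly all over Gm26917. Without Gm26917 they held 1864 and 1677 reads, or 80.0 and 78.3 for every 100 reads of the members, against 12.6 and 12.7 for protein-coding genes. The pooled ratio rested on a few members and does not describe the typical one. Any antisense read was found over 46.6% of members against 69.8% of protein-coding genes, and the median per 100 own reads was 0 against 4.88. More antisense than own reads were found for 15 members, or 12.7%, against 6.56% of protein-coding genes. Among genes with 10 to 99 reads these shares were 12.5% of members and 8.75% of protein-coding genes. Over 2900097C17Rik there were 730 and 721, all in single-exon models from 156388065 to 156391575 or 156391514, which is the 3′ part of the gene. The antisense reads were more than its own in both libraries. Tmem250-ps had 422 and 361 against 11 and 4 of its own, Mir124a-1hg 253 and 179, Malat1 122 and 105, and 4930570G19Rik 79 and 56. The strand of unspliced reads was not tested, so whether these come from RNA of the other strand or from the members themselves cannot be told apart.

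**Figure D4:**
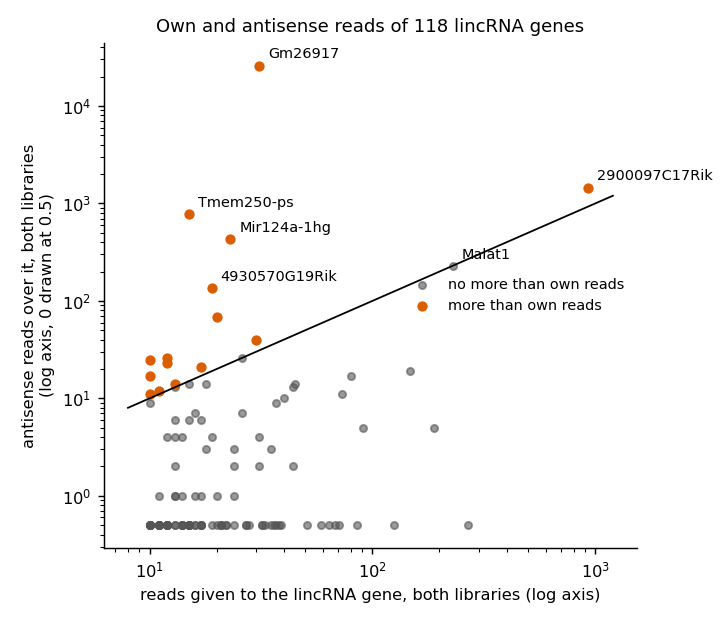
Reads given to each of the 118 members (x axis) against reads of antisense models over it (y axis), summed over both libraries, on log axes with 0 drawn at 0.5; the line marks equal numbers. The 15 orange members lie above the line, led by Gm26917, and 2900097C17Rik and Malat1 have over 200 reads on either strand.

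To compare the libraries, each gene with 20 or more reads in all was put to an exact binomial test, two-sided, with the ratio of library totals as the null value and Benjamini-Hochberg adjustment over all such genes. A gene was called at an adjusted p under 0.05 and at least 2-fold. The test compares these libraries and not conditions. Of 9062 genes 0.309% were called, 0.143% higher in replicate 1 and 0.166% higher in replicate 2. Of the 51 members tested, 2 were called, 1 in each direction, 6 had an unadjusted p under 0.05, and 45 were within 2-fold. Gm49247 had 20 reads in replicate 1 and 0 in replicate 2 (adjusted p = 0.00111, exact binomial test). Against a floor of 3 counts in replicate 2, its level was at least 6.01-fold higher in replicate 1. Gm26848 had 8 and 36 (log2 ratio of replicate 1 over 2 of -2.25, adjusted p = 0.00186, exact binomial test).

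Both calls ended when the models at the locus were counted whatever gene they had been given to. On chromosome 17, the model from 6447402 to 6450969 was counted under Gm26848 in replicate 2, with 28 single-exon reads. In replicate 1 a model with the same ends and 34 single-exon reads was counted under an unannotated antisense gene. With all models of that strand, the locus had 59 and 36 reads (adjusted p = 0.712, exact binomial test). Gm49247 is annotated at 8480871 to 8481945 on chromosome 15, and 0 of its 20 reads touched its annotated exons. Outside that span, 17 reads in replicate 1 formed a model from 8445417 to 8445638 that was counted under the gene. In replicate 2 a model from 8445415 to 8448252 with 16 reads, also outside it, was counted as intergenic. Together the locus, which reaches beyond the annotated gene, had 32 and 24 reads (adjusted p = 0.985, exact binomial test). The libraries were processed separately.

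**Figure D5:**
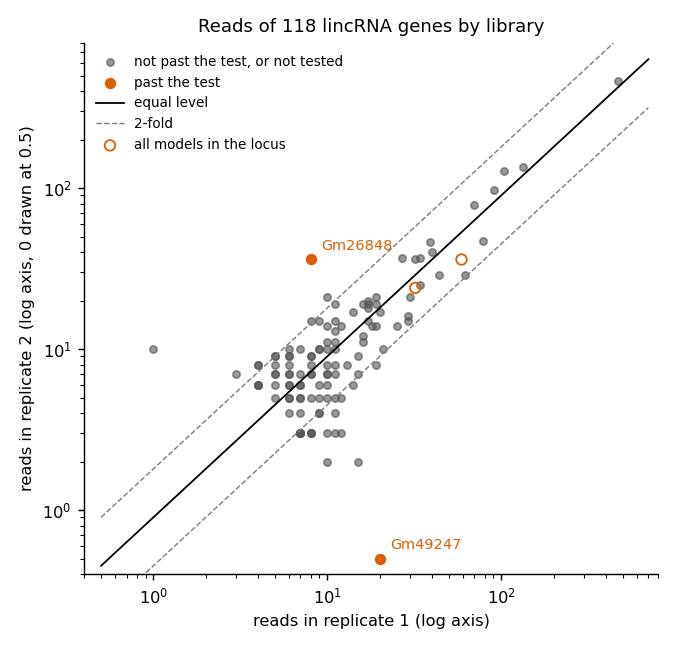
Reads of each member in replicate 1 (x axis) and replicate 2 (y axis) on log axes, with 0 drawn at 0.5, the line of equal level and dashed lines of 2-fold. Filled orange points are the 2 members past the test, and open orange points show the same loci with all models counted, 59 and 36 reads for Gm26848 and 32 and 24 for Gm49247.

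Lists of noncoding genes show what else was read. Of 11 nuclear or chromatin-bound RNAs all had reads, with 4 of them members (Miat, Malat1, Neat1 and Pvt1), and Tug1 had 7 and 7, Lncpint 3 and 3, Crnde 3 and 1, Kcnq1ot1 3 and 1 and Trp53cor1 2 and 1. All 5 genes of the X inactivation list had reads. Of 14 genes of neural development 11 had reads, among them Peg13 (59 and 52), Dlx1as (11 and 20), Sox2ot (15 and 11), Dlx6os1 (8 and 9), Pantr2 (2 and 5), Tunar (1 and 4) and Lhx1os (1 and 0).

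Of the 12 annotated microRNA hosts 9 had reads, including Mir22hg (22 and 23), Mir99ahg (11 and 7), Dleu2 (8 and 7), Mirg (7 and 5) and Mir124-2hg (6 and 2), and Mir17hg, Mir155hg and Mir142hg had none. The last 2 are known from immune cells. A further list held other named lncRNAs, several of which act in the cytoplasm or host small nucleolar RNAs. Of its 10 annotated genes 8 had reads, while Nron and Dnm3os had none. Gas5 had 83 and 81, Cep83os 23 and 27, Dancr 9 and 13, Zfas1 13 and 6 and Dubr 4 and 1. Of 9 imprinted noncoding genes 7 had reads, led by Meg3 (395 and 356), Rian (40 and 47), Airn (20 and 18) and Snhg14 (3 and 6), and H19 and Nespas had none. Of 9 lncRNAs known from trunk, limb, heart or embryo, Hotair, Hottip, Fendrr and Halr1 had no read, as had H19 and Dnm3os, while Airn had 20 and 18, Trp53cor1 2 and 1 and Bvht 1 and 2.

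The members nearest to the minimum of 10 reads were 2810032G03Rik (4 and 6), 5430416N02Rik (7 and 3), AC122818.3 (7 and 3), D230017M19Rik (6 and 4) and Gm12536 (3 and 7), from 11 genes with exactly 10 reads. Just below, at 9 reads, were 12 genes, among them 9530059O14Rik (6 and 3), B930059L03Rik (5 and 4), Gm15398 (3 and 6), Gm15631 (4 and 5) and Gm26644 (7 and 2). Levels on either side of the minimum, 6.25 to 6.51 CPM and 5.58 to 5.84 CPM for the genes named, do not differ beyond their spread.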

How the data were processed

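Total RNA of 2 hippocampus libraries was read as long cDNAs. Per the labels, the assembly is mm10 and Ambion and Lexogen spike-ins were added. The authors deposited, for each library separately, read counts for each transcript model, in TALON classes, and the model structures, with GENCODE M21 names. Counts were summed per gene and divided by the reads not on spike-ins (CPM). The library totals were 836240 and 752291 reads, spike-ins included. Their counts differed by more than sampling noise (chi-square over degrees of freedom of 1.395 over 9062 genes), so they were treated as 2 libraries. Intervals and floors cover counting error only. The binomial, Fisher and multiple-testing steps used Python 3.11.15, SciPy 1.17.1 and statsmodels 0.14.6, copies were searched with BLAST 2.17.0, and edgeR 4.0.16 gave TMM factors for an alternative. On simulated counts for 9062 genes, the binomial test recovered 28% of genes changed 2-fold and 80% of those changed 4-fold. A call also needed an observed ratio of at least 2-fold. These rates are over all tested genes and were not measured for the members alone. No paired analysis was possible because there was 1 group.

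The members, gene lists and motifs were chosen with earlier results of these data known. The genes named were the 15 highest, those nearest the minimum, those called between libraries, those with isoform shares, the leading unannotated chains and the extremes of each measure, with list genes. Copies, motif searches and counts by locus were added after the data were seen. Intron end bases and bases after 3′ ends were not analysed here.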

Additional observations from a re-analysis of the deposited data

How the results depend on the processing

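Members numbered 118 over both libraries, and 112 to 138 from a single library with its minimum set to 5 reads. Over both libraries they became 234 with a minimum of 5 reads, 51 with 20, 55 without genomic models and 49 from full-splice models. Their share of reads, 0.287%, was 0.200% without genomic models, 0.255% from full-splice models, 0.219% without members that have near-identical copies, 0.260% without those with no read in an own exon, 0.275% without the 3 at the ribosomal RNA locus, and 0.283 to 0.290% in single libraries. The median level, 11.4 CPM, was 5.55 without genomic models, 5.74 from full-splice models and 10.7 to 12.1 in single libraries. The 2 calls between libraries became 0 with a minimum of 50 reads, without genomic models, from full-splice models and by locus, and calls over all genes went from 28 to 52 with no fold limit, 59 without genomic models and 14 from full-splice models. Taken as the median over members, without the top 3 members and with a minimum of 50 reads, the full-splice share (58.1%) was 39.8, 46.1 and 71.1%, the genomic share (36.7%) 34.8, 46.9 and 26.4%, and the single-exon share (73.4%) 81.7, 63.9 and 81.3%. The genomic share was 30.7% without members that have no read in an own exon. The leading isoform share, 71.5%, was 66.4% with a minimum of 50, 87.1% over annotated chains and 68.4 to 77.9% in single libraries. Members with at least 2 isoforms numbered 3 with a minimum of 50 and 5 to 6 in single libraries. The 2 unannotated chains became 14 with a minimum of 2 reads and 0 with 10. Antisense reads fell from 29476 to 3541 without Gm26917. In all, 39 alternatives of these results stayed close, several of them given above, and none reversed. For 17 single genes, 22 values moved by more than the SD over libraries, all in the 2 settings on model class. A single library cannot move a mean of 2 by more than that SD, but it moved 2 genes by over 1.5 times: Gm26848 from 29.0 to 9.68 or 48.3 CPM, and Gm49247 from 12.1 to 0 or 24.2 CPM. The alternatives on copies, own exons, the ribosomal RNA locus and counting by locus were chosen after seeing the data. Most members have under 20 reads, so their shares and differences are poorly resolved.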
